A study of Mus musculus with 39 samples.

Results

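Trem2 and 7 genes around it in microglia are described here across both genotypes, both treatments and both sexes of the study: Trem2, its adaptor Tyrobp, the neighbouring receptor gene Treml2, the kinase gene Syk, and the membrane-spanning genes Ms4a4a, Ms4a6b, Ms4a6c and Ms4a6d. They were chosen by name, and all 8 were found among the 46333 genes of the female and the 54532 genes of the male count table. All 8 passed the filter on low counts in each comparison. The RNA came from cells that the study isolated from the cerebrum of perfused mice with magnetic beads against CD11b, an integrin of microglia and other myeloid cells. WT mice and 5XFAD mice were the offspring of C57BL/6J females and 5XFAD males on a B6SJL background; 5XFAD mice carry mutant human transgenes, APP among them, and deposit β-amyloid. From 4 months of age they were kept in chronic intermittent hypoxia (CIH), in which oxygen alternated between 21% and a low level over intervals of 90 s, or in normoxia (NX) at 21% oxygen. The low level was 6% for 12 h a day in the study's methods and 6.5% for 8 h a day in the sample labels. Females were harvested at 10 months after 6 months of exposure, and males at 8 months after 4 months. Each group had 5 libraries, each labelled as a separate sample, except female WT NX, which had 4. Because age, exposure time and count table all differed between the sexes, no test was made between them.

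TREM2 is a surface receptor of microglia that binds lipids, apolipoproteins and β-amyloid. It has no signalling tail of its own and pairs with DAP12, the product of Tyrobp, whose ITAM motif recruits the kinase SYK, which in turn acts through phospholipase C gamma, PI3 kinase and VAV proteins. Metalloproteases cleave TREM2 from the cell surface, and phosphatases such as SHP-1 and SHIP1, brought in by inhibitory receptors such as CD33, oppose the ITAM signal. In mice with amyloid plaques, microglia near plaques take on a disease-associated (DAM) state, the later stage of which requires TREM2. The MS4A proteins cross the membrane several times, and variants near the human MS4A genes are linked to soluble TREM2 in cerebrospinal fluid.

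Libraries held 14731683 to 25906121 counts in females and 13457293 to 23095627 in males. Levels are given as CPM, the share of a library's counts put on a common scale with edgeR's TMM factors, which ranged from 0.78 to 1.27, and differences as log2 fold changes (log2FC) of the second group of a pair over the first. A gene passed the test where edgeR's quasi-likelihood F test gave a Benjamini-Hochberg false discovery rate (FDR) below 0.05 over all genes tested. All 10 microglia markers, among them P2ry12 and Tmem119, had a mean above 1 CPM in each group, with a sum of 25216 to 41242 CPM per library. The library labelled F 5XFAD NX 4 lay at −42.9 on the first principal component of the female libraries (47.9% of the variance), among the WT libraries (−58.4 to −27.6) and apart from the other 5XFAD libraries (35.9 to 69.9). On the second component (13.1%) it lay at 65.9, beyond all other female libraries (−47.7 to 41.7). Whether its label is right was not settled here, and values of female 5XFAD NX include it unless stated otherwise. The study's methods mention 1 female normoxia sample as an outlier, without naming it. The libraries M 5XFAD NX 4 and 5 lay at −2.2 and −3.9 on the first component of the males (34.6%). That was between the WT libraries (−73.4 to −12.8) and the other libraries of their group (78.9 to 80.0). On the second component (15.3%) they lay at −72.5 and −73.1, beyond all other male libraries (−47.4 to 64.0). Bulk values do not separate fewer cells of a type from less RNA per cell.

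Trem2 lies on chromosome 17 of GRCm38 (48346401 to 48354147, plus strand), and Treml2 lies on its proximal side (48299498 to 48312533, plus strand) in the cluster of Trem genes. Tyrobp lies on chromosome 7 (30413760 to 30417585, plus strand) and Syk on chromosome 13 (52583173 to 52648792, plus strand). The Ms4a genes share a cluster on chromosome 19: Ms4a4a (11375523 to 11392790, plus strand), Ms4a6c (11469366 to 11482192, plus strand), Ms4a6b (11516512 to 11531256, plus strand) and Ms4a6d (11586604 to 11604849, minus strand). RefSeq promoters of the same build, from 250 bases before to 50 bases after the start, were matched for 5 of the 8 genes.

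The Trem2 promoter (GRCm38.p6, chr17:48346151-48346450, plus strand) is shown because Trem2 and its partner Tyrobp moved together below. It holds 1 match to the core GAGGAAG that PU.1, the factor that specifies macrophages, prefers, on the minus strand at position −41 from the start; capitals mark it as read on the plus strand. Of 32851 RefSeq promoters of the same length, 13.63% hold this core on either strand. It holds 1 CCAAT, which 37.41% hold, and no hypoxia response element ACGTG (19.62%), E-box CACGTG (7.15%, a string that contains ACGTG) or interferon-stimulated response element (3.44%). The same 5 motifs were searched on both strands of the other promoters and none was found for Ms4a4a, Ms4a6b, Ms4a6c or Syk.
Trem2: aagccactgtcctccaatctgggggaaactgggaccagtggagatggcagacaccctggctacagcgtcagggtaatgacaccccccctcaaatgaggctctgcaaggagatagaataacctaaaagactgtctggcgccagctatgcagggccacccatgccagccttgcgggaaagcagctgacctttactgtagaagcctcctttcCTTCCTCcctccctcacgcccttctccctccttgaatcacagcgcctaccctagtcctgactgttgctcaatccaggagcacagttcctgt

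The promoters of Ms4a6c (chr19:11469118-11469417, plus strand) and Ms4a6b (chr19:11518309-11518608, plus strand) are set side by side because Ms4a6b passed in each genotype comparison below and its neighbour Ms4a6c in none, a difference between the genes that was not tested. Capitals mark the longest run of bases that they share, 48 bases, whereas the other 9 pairs among the 5 genes' promoters shared runs of 7 to 9 bases.
Ms4a6c: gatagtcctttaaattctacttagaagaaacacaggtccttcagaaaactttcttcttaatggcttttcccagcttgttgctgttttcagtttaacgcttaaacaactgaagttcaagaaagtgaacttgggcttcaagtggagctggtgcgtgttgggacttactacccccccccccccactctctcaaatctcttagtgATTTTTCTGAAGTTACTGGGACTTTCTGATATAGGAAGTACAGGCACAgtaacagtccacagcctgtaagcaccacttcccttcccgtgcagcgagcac
Ms4a6b: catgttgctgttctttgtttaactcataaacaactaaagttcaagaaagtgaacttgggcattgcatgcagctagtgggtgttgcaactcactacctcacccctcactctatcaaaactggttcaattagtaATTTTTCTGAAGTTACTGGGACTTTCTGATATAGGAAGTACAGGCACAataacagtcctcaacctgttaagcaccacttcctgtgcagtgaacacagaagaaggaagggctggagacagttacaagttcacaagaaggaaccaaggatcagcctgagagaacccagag

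The transcripts of these genes overlap in sequence to different degrees, which limits one of them. Of the 75-base windows of the annotated Ms4a6c transcripts, 47.72% also occur, as the reverse complement, in the transcripts of BE692007 on the opposite strand, so the level of Ms4a6c is uncertain. The share of windows found in transcripts of any other gene was 0.63% for Ms4a6b (BE692007, Ms4a6c and Ms4a6d). It was 0.41% for Ms4a6d (Ms4a6b alone) and 0 for the other 5 genes. Per length (FPKM, female WT NX libraries), Trem2 stood highest at 982 to 1284, next to Tyrobp at 803 to 1029, whose ranges overlapped. Below them came Syk at 62.4 to 76.0 and Ms4a6d at 54.0 to 74.6, which overlapped too, then Ms4a6b at 35.4 to 41.9 and Ms4a6c at 17.0 to 26. Ms4a4a at 4.32 to 9.21 and Treml2 at 3.56 to 4.71 were lowest and overlapped. In male WT NX, Tyrobp was at 1027 to 1623 and Trem2 at 389 to 465 FPKM without overlap. Syk at 24.1 to 29.6 and Ms4a6d at 59.7 to 74.8 did not overlap there either. The male table counts Trem2 over 4946 and Syk over 9362 bases, and the female values imply 1118 and 5352 bases. The order of Trem2 and Tyrobp and the gap between Syk and Ms4a6d thus differ between tables that differ in gene length.

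**Figure D1:**
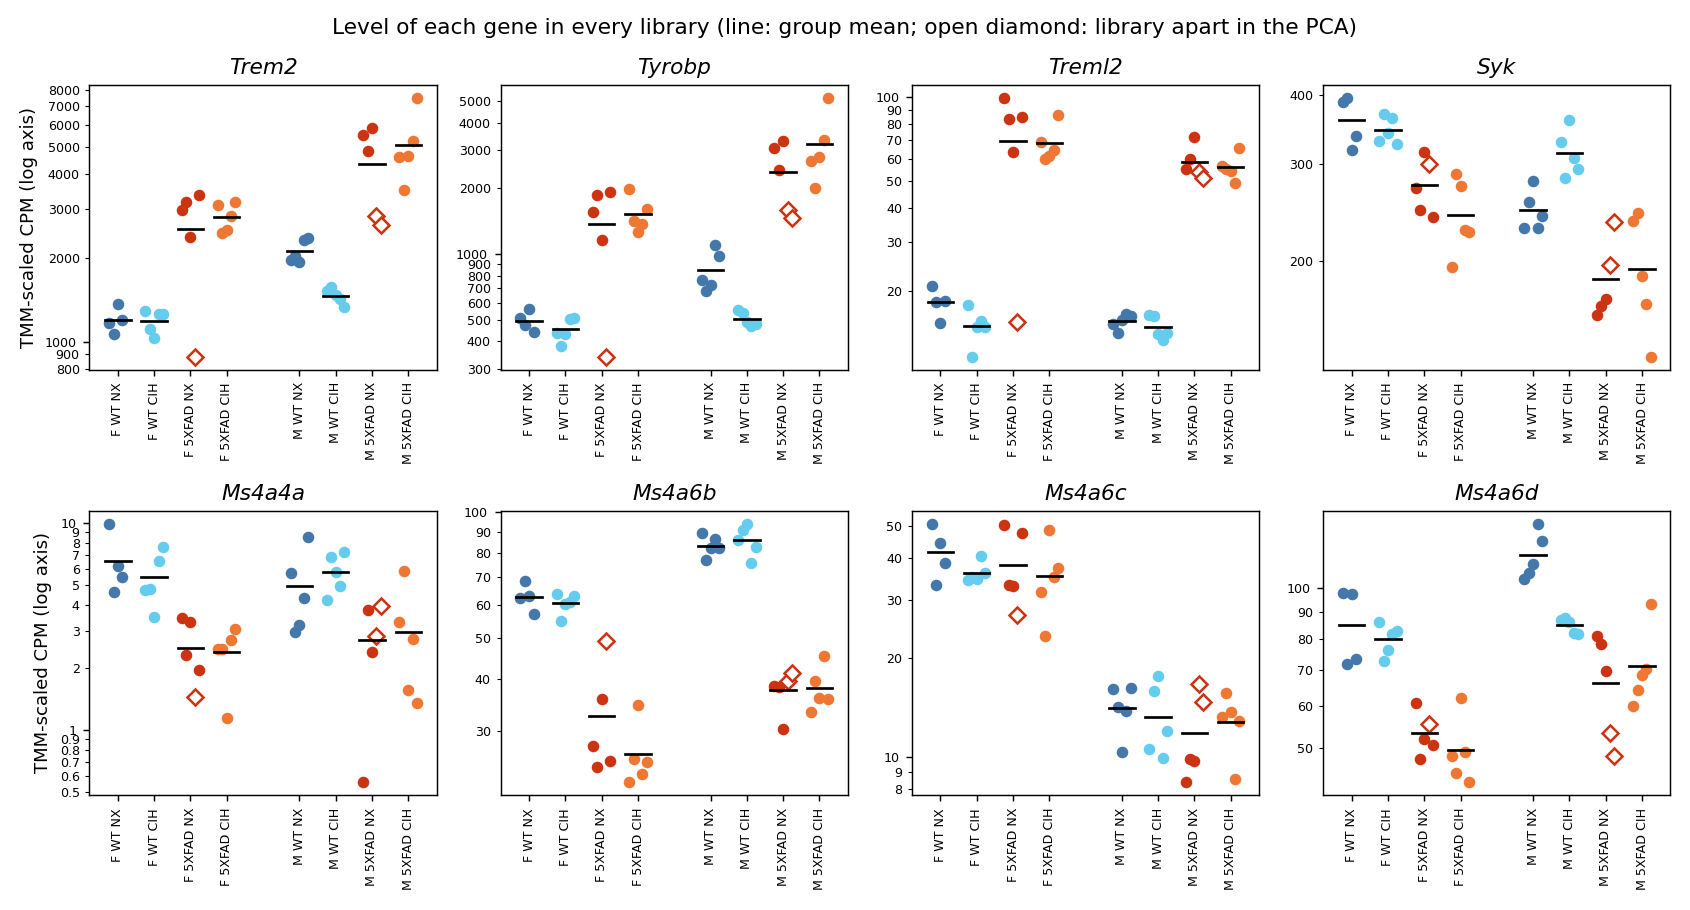
TMM-scaled CPM of each gene in every library on log axes, with 1 point per library, a line at the group mean and open diamonds for F 5XFAD NX 4 and M 5XFAD NX 4 and 5. Trem2, Tyrobp and Treml2 stand higher in 5XFAD than in WT of the same sex and treatment, apart from F 5XFAD NX 4 (15.5 CPM of Treml2, against 63.5 to 99.7 in the other 4 libraries of its group), and Trem2 and Tyrobp lie lower in male WT CIH than in male WT NX.

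The first question was how the 8 genes differ between genotypes under normoxia. In females, 3 of the 8 genes were higher and 3 lower in 5XFAD NX than in WT NX, where 7.26% of all 14513 genes tested were higher and 6.61% lower. Trem2 measured 1169, 1066, 1364 and 1197 CPM in the 4 WT NX libraries and 2960.3, 3158, 2371, 884 and 3346 in the 5 5XFAD NX libraries. The library labelled F 5XFAD NX 4 lay below every WT NX library, and the other 4 lay above them all. Over all 9 libraries Trem2 was 2.13-fold higher in 5XFAD NX (log2FC of 1.09 with an SE of 0.306 and an FDR of 0.0457).

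Tyrobp, the signalling adaptor, measured 512, 475, 562 and 441 CPM in female WT NX and 1561, 1863, 1168, 341 and 1921 in 5XFAD NX. It was 2.76-fold higher (log2FC of 1.46 with an SE of 0.387 and an FDR of 0.0390), again with 1 library of 5XFAD NX below the WT range. Treml2, a receptor gene of the same family, measured 20.9, 18.2, 15.4 and 18.4 CPM in WT NX and 99.7, 83.6, 63.5, 15.5 and 85.3 in 5XFAD NX. It was 3.81-fold higher (log2FC of 1.93 with an SE of 0.404 and an FDR of 0.0220), and F 5XFAD NX 4 lay within the WT range.

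These calls in normoxic females were close to the limit. Without F 5XFAD NX 4, 7 of the 8 genes passed, with a log2FC of 1.29 for Trem2 (FDR = 6.46e-05), 1.70 for Tyrobp and 2.17 for Treml2. The whole table moved with that library, as 21.8% of 14149 genes were then higher and 22.2% lower. Leaving out any other single library left 0 to 3 of the 8 genes past the test, and fewer genes over the table as well. None passed without F WT NX 3 (0.301% of all genes did), F 5XFAD NX 2 (2.17%) or F 5XFAD NX 5 (1.16%), and 1 passed without F WT NX 4 (1.23%). Without F WT NX 2 (2.75%), F 5XFAD NX 1 (2.84%) or F 5XFAD NX 3 (3.27%) 2 passed, and without F WT NX 1 (6.52%) 3 did.

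Males under normoxia also had 3 of the 8 genes higher and 3 lower in 5XFAD, with 10.4% of 14834 genes higher and 7.37% lower (1545 and 1093 genes, or 1076 and 2179 when scaled by library size alone). Trem2 measured 1962, 2030.2, 1933, 2310.4 and 2345 CPM in WT NX and 5489, 4824, 5829, 2825 and 2625 in 5XFAD NX. It was 2.06-fold higher (log2FC of 1.04 with an SE of 0.215 and an FDR of 0.00462), and the groups did not overlap. The libraries M 5XFAD NX 4 and 5 held the lowest values of their group.

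Male Tyrobp measured 763, 682, 723, 1101 and 987 CPM in WT NX and 3048, 2439.8, 3297, 1599 and 1472 in 5XFAD NX, a 2.81-fold difference (log2FC of 1.49 with an SE of 0.235 and an FDR of 0.000728) without overlap. Treml2 measured 15.3, 14.2, 15.8, 16.6 and 16.3 CPM in WT NX and 55.3, 59.9, 72.0, 54.1 and 51.4 in 5XFAD NX. It was 3.78-fold higher (log2FC of 1.92 with an SE of 0.124 and an FDR of 4.69e-07), and M 5XFAD NX 4 and 5 stood close to the rest of their group. Without M 5XFAD NX 4 and 5, the log2FC was 1.36 for Trem2 and 1.80 for Tyrobp.

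Under CIH, Trem2, Tyrobp and Treml2 were higher in 5XFAD of both sexes. In females, 3 of the 8 genes were higher (26.2% of 14911 genes were) and 4 lower (25.7%); scaled by library size alone, 2610 genes were higher and 6288 lower in place of 3906 and 3833. Trem2 measured 1290.5, 1112, 1028, 1256 and 1262 CPM in WT CIH and 3094, 2444, 2517, 2810.5 and 3169 in 5XFAD CIH, a 2.37-fold difference (log2FC of 1.24 with an SE of 0.0916 and an FDR of 1.62e-07). Tyrobp measured 437, 379.8, 431, 508 and 512 CPM in WT CIH and 1989, 1421, 1263, 1378 and 1607 in 5XFAD CIH, a 3.39-fold difference (log2FC of 1.76 with an SE of 0.125 and an FDR of 1.15e-07). For both genes the lowest 5XFAD library stood well above the highest WT library. Treml2 measured 17.9, 11.6, 14.9, 15.6 and 14.9 CPM in WT CIH and 69.2, 59.8, 61.4, 64.7 and 86.7 in 5XFAD CIH, a 4.57-fold difference (log2FC of 2.19 with an SE of 0.118 and an FDR of 9.76e-09), also without overlap.

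In males under CIH, 3 of the 8 genes were higher in 5XFAD, as were 25.3% of 14793 genes, and 3 lower, as were 23.7% (3739 and 3509 genes, or 2205 and 6800 when scaled by library size alone). Trem2 measured 1519, 1576, 1469, 1422 and 1328 CPM in WT CIH and 4592, 3503, 4617, 5241 and 7476 in 5XFAD CIH, a 3.55-fold difference (log2FC of 1.83 with an SE of 0.157 and an FDR of 4.17e-07). Tyrobp measured 554, 537, 491, 469 and 479 CPM in WT CIH and 2666, 2007, 2775, 3329 and 5189.6 in 5XFAD CIH, a 6.43-fold difference (log2FC of 2.69 with an SE of 0.200 and an FDR of 9.98e-08). The library M 5XFAD CIH 5 held the highest value of all male libraries for both genes, and without it the log2FC was 1.66 for Trem2 and 2.45 for Tyrobp. Treml2 measured 16.4, 16.2, 14.0, 13.4 and 14.2 CPM in WT CIH and 56.6, 55.3, 54.4, 49.0 and 66 in 5XFAD CIH, a 3.87-fold difference (log2FC of 1.95 with an SE of 0.112 and an FDR of 7.92e-09), with no overlap. The comparisons under NX and CIH use different libraries, while those between treatments below share their WT or 5XFAD groups with them.

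The summed CPM of the 10 microglia markers was lower in 5XFAD in the same comparisons, at 32839 to 36303 in WT and 25216 to 30455 in 5XFAD in NX females and 31702 to 37455 and 26374 to 28461 in CIH females. In males it was 36777 to 41242 and 25628 to 31329.7 under NX and 31149 to 36648 and 27871 to 29177 under CIH. The libraries of the genotypes did not overlap in any of the 4, and the part of this in the differences was not tested.

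**Figure D2:**
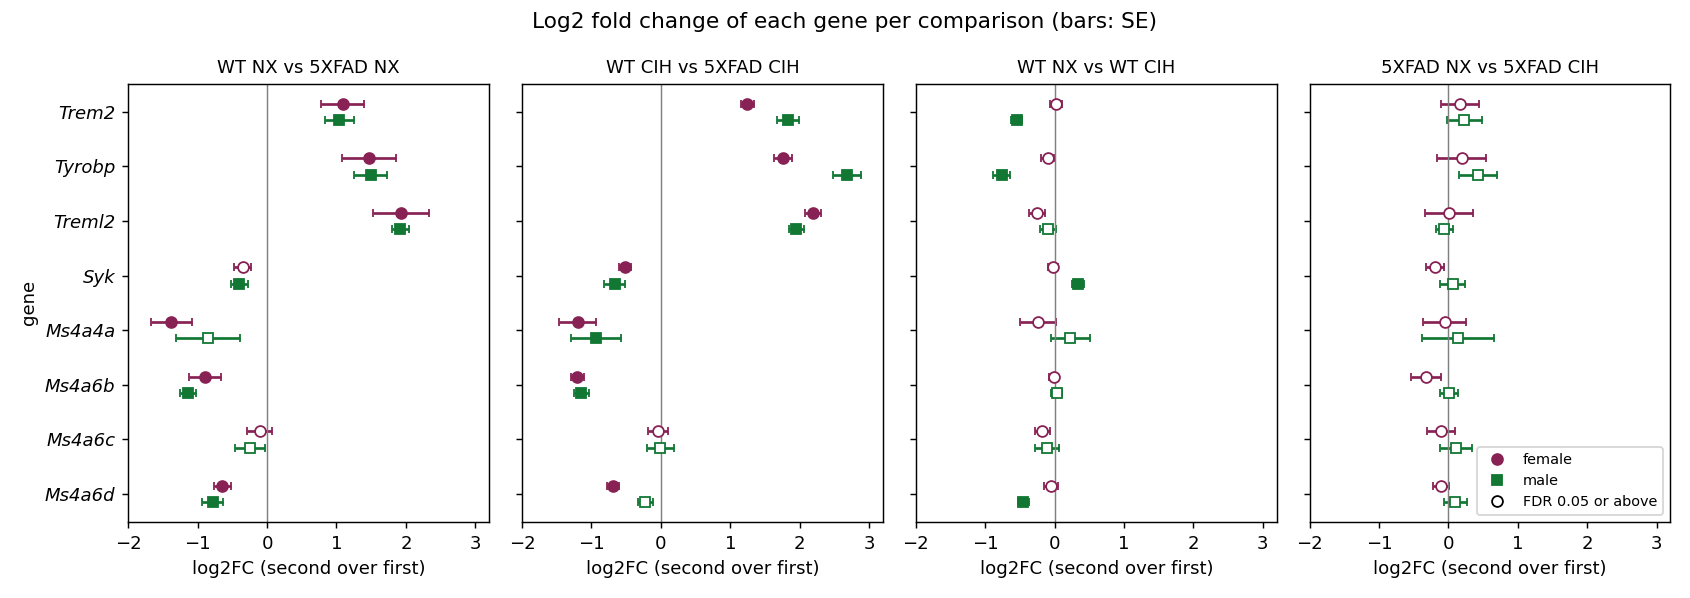
log2FC of each gene (x axis, second group over first) in 4 comparisons, with circles for females, squares for males, open symbols for an FDR of 0.05 or above and bars for the SE. Trem2, Tyrobp and Treml2 lie between 1.04 and 2.69 in all genotype comparisons, and in WT NX vs WT CIH the 4 filled symbols are all male.

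The second question was how CIH changed these genes within a genotype. In WT males, CIH was accompanied by lower Trem2, Tyrobp and Ms4a6d and higher Syk: 3 of the 8 genes fell, where 15% of 14983 genes fell, and 1 rose, where 13.6% rose (2244 and 2035 genes, or 1551 and 2818 when scaled by library size alone). Trem2 measured 1962, 2030.2, 1933, 2310.4 and 2345 CPM under NX and 1519, 1576, 1469, 1422 and 1328 under CIH. Every CIH library lay below every NX library, and Trem2 was 1.46-fold lower (log2FC of −0.55 with an SE of 0.0779 and an FDR of 0.000317). Tyrobp measured 763, 682, 723, 1101 and 987 CPM under NX and 554, 537, 491, 469 and 479 under CIH, 1.70-fold lower (log2FC of −0.76 with an SE of 0.119 and an FDR of 0.000510), also without overlap.

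Syk, the kinase that binds the phosphorylated ITAM, moved the other way in WT males, from 229.9, 256, 279, 229 and 242 CPM under NX to 329, 283, 359.6, 308 and 293 under CIH. It was 1.26-fold higher (log2FC of 0.33 with an SE of 0.0880 and an FDR of 0.0109), and the groups did not overlap. Ms4a6d measured 104, 107, 111, 132 and 123 CPM under NX and 86.8, 87.9, 86.1, 82.1 and 81.7 under CIH, 1.37-fold lower (log2FC of −0.45 with an SE of 0.0809 and an FDR of 0.00104) without overlap. Treml2, Ms4a4a, Ms4a6b and Ms4a6c did not pass, with log2FC from −0.11 to 0.23 and overlapping groups.

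The 4 differences in WT males kept their calls when any single library was left out, but none passed when all 4 male groups shared 1 estimate of the spread (FDR = 0.0913 for Trem2, 0.0641 for Tyrobp, 0.129 for Syk and 0.0655 for Ms4a6d), a fit in which no gene of the table passed. The summed CPM of the 10 microglia markers moved with treatment as well, at 36777 to 41242 under NX and 31149 to 36648 under CIH, without overlap. The summed CPM of 7 neutrophil markers was 231 to 1230.1 and 109.9 to 326, and that of 7 monocyte markers 51.4 to 123 and 36.1 to 59.4, both with overlap. That of 5 B cell markers, of which 2 had a mean above 1 CPM under NX and 1 under CIH, was 28.1 to 41.0 and 17.9 to 24.7, without overlap. The part of any of these in the differences was not tested.

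In the other treatment comparisons no member passed, and neither did any gene of the table with edgeR's quasi-likelihood test. In WT females the 8 log2FC lay between −0.25 and 0.02 (0% of 14583 genes were called; 565 had an unadjusted p under 0.05, DESeq2 called 1, and edgeR without a filter on low counts called 22 of 36713, all lower). In 5XFAD females they lay between −0.32 and 0.19 (0% of 14578 called, 470 with an unadjusted p under 0.05, none called by DESeq2 or without the filter). In 5XFAD males they lay between −0.06 and 0.42 (0% of 14334 called, 473 with an unadjusted p under 0.05, 1 called by DESeq2, 1 by the likelihood ratio test and none without the filter). For Trem2 in 5XFAD males the log2FC was 0.23 with an SE of 0.252 (FDR = 0.995), and for Tyrobp 0.42 with an SE of 0.273 (FDR = 0.995). Without M 5XFAD NX 4 and 5, the Trem2 value was −0.08. A difference that missed the test is not shown to be absent at this spread, which was wide in 5XFAD males.

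Whether CIH acted differently in the genotypes was tested as an interaction within each sex. In males the interaction log2FC, the difference of 5XFAD CIH from 5XFAD NX minus that in WT, was 0.78 with an SE of 0.281 for Trem2 (unadjusted p = 0.0115, FDR = 0.128 in edgeR) and 1.19 with an SE of 0.324 for Tyrobp (unadjusted p = 0.00138, FDR = 0.117 in edgeR). For Ms4a6d it was 0.55 with an SE of 0.195 (unadjusted p = 0.00964, FDR = 0.125 in edgeR). None of the 8 genes passed with edgeR's quasi-likelihood test, and 0% of 15813 genes did, though 3857 had an unadjusted p under 0.05. DESeq2 called 945 genes and edgeR's likelihood ratio test 248, and each called Tyrobp among the 8 (FDR = 0.0262 and 0.0425). Without the filter on low counts edgeR called 1754 of 38365 genes, Trem2 (FDR = 0.0195) and Tyrobp (FDR = 0.000131) among them. Without M 5XFAD NX 4 and 5 the interaction log2FC was 0.46 for Trem2, 0.88 for Tyrobp and 0.34 for Ms4a6d. In females the interaction values lay between −0.32 and 0.28, and 0% of 15582 genes passed (589 with an unadjusted p under 0.05, none by DESeq2).

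Syk ran opposite to Trem2 and Tyrobp between genotypes as well. In females it measured 388, 395, 317 and 337 CPM in WT NX and 271, 248, 316, 299.5 and 240.5 in 5XFAD NX, and although the groups did not overlap it did not pass (log2FC of −0.35 with an SE of 0.125 and an FDR of 0.0836). Without F 5XFAD NX 4 it did, at −0.43 (FDR = 0.00795). Under CIH it measured 330.2, 369, 341, 363 and 326 CPM in WT and 195, 288, 274, 228 and 226 in 5XFAD, 1.43-fold lower (log2FC of −0.52 with an SE of 0.0895 and an FDR of 0.000327) without overlap.

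Male Syk measured 159.9, 166, 171, 197 and 235 CPM in 5XFAD NX, against the WT NX values above, and overlapped them through M 5XFAD NX 5. It was 1.32-fold lower (log2FC of −0.40 with an SE of 0.124 and an FDR of 0.0417), a call lost in 8 of 10 fits that left out 1 library (FDR up to 0.103). Without M 5XFAD NX 4 and 5 its log2FC was −0.56 (FDR = 0.000303). Under CIH it measured 236, 244, 188, 167 and 134 CPM in 5XFAD, all below the WT CIH libraries, and was 1.58-fold lower (log2FC of −0.66 with an SE of 0.151 and an FDR of 0.00235). Across the libraries, Pearson's r of log2 CPM between Syk and Trem2 was −0.85 over 19 female and −0.92 over 20 male libraries, given as a description because the libraries share genotype, depth and composition.

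Among the Ms4a genes, Ms4a6b was lower in 5XFAD in all 4 genotype comparisons. In females it measured 62.4, 68.6, 63.0 and 57.0 CPM in WT NX and 27.6, 24.6, 35.7, 49.2 and 25.3 in 5XFAD NX, 1.86-fold lower (log2FC of −0.90 with an SE of 0.229 and an FDR of 0.0360) with F 5XFAD NX 4 nearest to WT. Under CIH it measured 63.8, 55.1, 60.2, 61.0 and 63.0 CPM in WT CIH and 22.6, 25.6, 34.6, 23.6 and 25.2 in 5XFAD CIH, 2.30-fold lower (log2FC of −1.20 with an SE of 0.0960 and an FDR of 3.52e-07). In neither comparison did the groups overlap.

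Male Ms4a6b measured 89.1, 77.1, 82.2, 86.3 and 82.0 CPM in WT NX and 38.3, 38.2, 30.3, 39.5 and 41.1 in 5XFAD NX, 2.20-fold lower (log2FC of −1.14 with an SE of 0.112 and an FDR of 1.67e-05). Under CIH it measured 86.1, 90.8, 94.0, 75.6 and 82.9 CPM in WT CIH and 33.3, 39.5, 35.9, 45.4 and 35.7 in 5XFAD CIH, 2.21-fold lower (log2FC of −1.14 with an SE of 0.104 and an FDR of 6.88e-07). The groups stood far apart in both, and M 5XFAD NX 4 and 5 lay with the rest of their group.

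Ms4a6d was lower in 5XFAD females under NX, at 97.8, 71.9, 97.2 and 73.4 CPM in WT and 60.6, 47.7, 52.0, 55.4 and 50.6 in 5XFAD (log2FC of −0.64 with an SE of 0.128 and an FDR of 0.0194), and under CIH, at 86.2, 72.9, 76.5, 81.7 and 82.7 CPM in WT CIH and 48.4, 44.8, 61.9, 49.1 and 43.0 in 5XFAD CIH (log2FC of −0.69 with an SE of 0.0883 and an FDR of 2.54e-05), without overlap in either. Male 5XFAD NX libraries measured 81.1, 78.5, 69.6, 53.3 and 48.3 CPM, below all WT NX libraries (log2FC of −0.78 with an SE of 0.155 and an FDR of 0.00367). The lowest were M 5XFAD NX 4 and 5, without which the log2FC was −0.58 (FDR = 0.000644). Under CIH the male 5XFAD libraries measured 59.9, 64.3, 68.5, 70.3 and 93.1 CPM and overlapped WT CIH through M 5XFAD CIH 5, and the gene did not pass (log2FC of −0.22 with an SE of 0.110 and an FDR of 0.107). It passed without that library (log2FC of −0.33, FDR = 0.0042) and with scaling by library size alone (−0.61, FDR = 7.96e-05).

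Ms4a4a was the least abundant of the 8 genes by CPM, with 9 to 263 counts per library. It measured 9.91, 4.62, 6.15 and 5.46 CPM in female WT NX and 3.45, 2.30, 3.30, 1.44 and 1.94 in 5XFAD NX (log2FC of −1.38 with an SE of 0.296 and an FDR of 0.0235), and 4.76, 4.79, 3.49, 6.55 and 7.63 in WT CIH and 2.46, 2.47, 1.14, 2.71 and 3.07 in 5XFAD CIH (log2FC of −1.20 with an SE of 0.267 and an FDR of 0.00213). In both it was lower in 5XFAD, and the groups did not overlap. Male values were 5.73, 2.95, 3.2, 4.31 and 8.50 CPM in WT NX and 0.558, 3.81, 2.39, 2.85 and 3.94 in 5XFAD NX, which overlapped and did not pass (log2FC of −0.85 with an SE of 0.464 and an FDR of 0.251). Under CIH they were 4.24, 6.82, 5.82, 4.97 and 7.20 CPM in WT CIH and 3.31, 5.86, 1.56, 2.76 and 1.35 in 5XFAD CIH (log2FC of −0.93 with an SE of 0.357 and an FDR of 0.0428), a call lost in 8 of 10 fits that left out 1 library (FDR up to 0.0955).

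Ms4a6c did not pass in any comparison. It measured 51.0, 33.1, 44.5 and 38.7 CPM in female WT NX and 50.5, 33.2, 33.0, 27.0 and 47.9 in female 5XFAD NX, with means of 41.8 ± 7.66 CPM and 38.3 ± 10.3 CPM (SD). Under CIH the female means were 36.2 ± 2.58 CPM in WT and 35.3 ± 9.28 CPM in 5XFAD. Male levels were lower in CPM, with means of 14.1 ± 2.35 CPM in WT and 11.8 ± 3.57 CPM in 5XFAD under NX and 13.2 ± 3.37 CPM and 12.8 ± 2.60 CPM under CIH. The groups overlapped in all 4 pairs. The log2FC of 5XFAD over WT spanned, within 1.96 SE, −0.46 to 0.25 in females and −0.66 to 0.18 in males under NX, and −0.32 to 0.25 and −0.39 to 0.37 under CIH. The difference from its neighbour Ms4a6b was not tested. Without M 5XFAD NX 4 and 5, Ms4a6c passed in normoxic males, at −0.59 (FDR = 0.0341), in a fit that called 4792 of 14299 genes.

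Markers of border-associated macrophages, the CD11b-positive cells of the meninges and vessels, moved with genotype beside the Ms4a genes. All 9 listed markers, which include Mrc1, Cd163, Lyve1, F13a1 and Ms4a7, had a mean above 1 CPM in each group. Their summed CPM was 1412 to 1775 in female WT NX, 1291 to 1782 in WT CIH, 519 to 1076 in 5XFAD NX and 508 to 784 in 5XFAD CIH. In males it was 1265 to 1675, 1229 to 1871, 475 to 675 and 444 to 849 in the same order. No 5XFAD library reached a WT library of its sex and treatment, and the library labelled F 5XFAD NX 4 held the highest 5XFAD sum. In that library Ms4a4a (1.44 CPM, against 1.94 to 3.45 in the rest of its group) and Ms4a6c (27.0, against 33.0 to 50.5) were lowest. Ms4a6b was highest there (49.2, against 24.6 to 35.7), and Ms4a6d lay within the range (55.4, against 47.7 to 60.6). The 2 genes whose log2 CPM ran most like that of Ms4a4a, of 13424 genes compared by Pearson's r, were F13a1 (r = 0.89 in 19 female and 0.82 in 20 male libraries) and Cd163 (0.89 and 0.80), both from this list. The other Ms4a genes had other nearest genes, and none of the 5 nearest to each was on it. Nearest to Ms4a6b were Lrba (0.98 and 0.98) and Ggta1 (0.98 and 0.98). Nearest to Ms4a6d were Alox5ap (0.95 and 0.96) and the microglia marker Tmem119 (0.94 and 0.95), and nearest to Ms4a6c was Dab2, at 0.62 and 0.60. Dendritic cell markers, a sum of 5 genes, were also lower in 5XFAD, at 29.2 to 49.5 CPM in WT and 13.1 to 15.9 in 5XFAD in NX males, 29.9 to 41.6 and 12.8 to 21.1 in CIH males and 26 to 34.3 and 12.5 to 16.4 in CIH females without overlap, and 23.0 to 44.7 and 12.9 to 25.5 in NX females with overlap. The part of border macrophages or dendritic cells in the Ms4a differences was not tested.

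**Figure D3:**
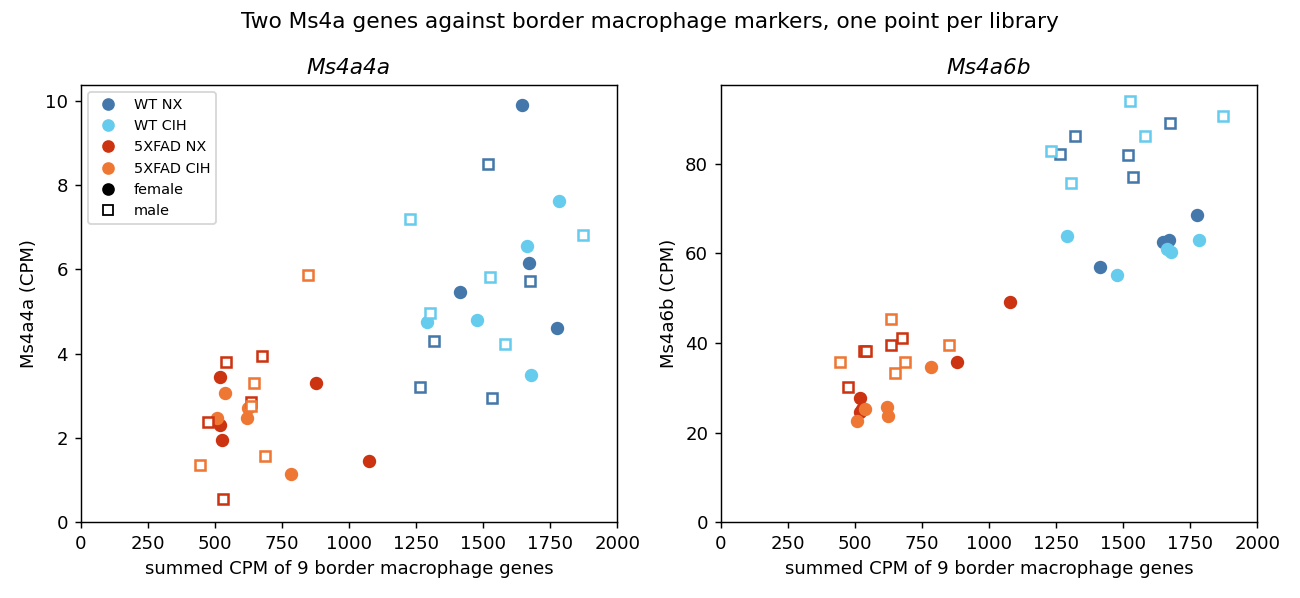
CPM of Ms4a4a and Ms4a6b (y axes) against the summed CPM of 9 border macrophage markers (x axis), with 1 point per library, filled circles for females and open squares for males. WT libraries lie at 1229 to 1871 summed CPM and 5XFAD libraries at 444 to 1076, and Ms4a6b stands lower on the 5XFAD side, whereas male Ms4a4a overlaps between the genotypes.

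Ms4a6b ran opposite to Treml2, with Pearson's r of log2 CPM of −0.94 in females and −0.98 in males, and to Tyrobp, with −0.94 and −0.91. Each r of this kind spans both genotypes, so it includes the genotype difference and is given as a description. Trem2 and Tyrobp ran almost in parallel (0.99 in both sexes). The genes most like Trem2 by Pearson's r in both sexes were Ctsz, which encodes cathepsin Z (0.99 and 0.99), Rpl5, Glmp, Rpl21-ps15 and Ctsa. Among those most like Treml2 were Axl, Csf1, Itgax and Cst7, which are also in the DAM list below. By Spearman's rho, none of the 5 genes most like Trem2 were the same, and none of the 4 named for Treml2 was among the 5 most like it, led by Fcgr2b and H2-D1.

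The wider pathway was described with 9 lists, 115 genes in all, of which Apoe, Clec7a and Lilrb4a stand in more than 1. Counts of their genes are read against the shares of all genes given above for each comparison. List counts and medians for NX females include F 5XFAD NX 4, on which the calls of that comparison depend, and are not reported without it. Of 4 genes for TREM2 ligands, Apoe (log2FC of 3.40) and Hspd1 (0.56) were higher in 5XFAD NX females. Apoe, Hspd1 and Lgals3, the gene for galectin-3, were higher in 5XFAD in the other 3 genotype comparisons, with Apoe at 4.00 in CIH females, 3.28 in NX males and 4.39 in CIH males. Clu did not pass in any of them. Lower in WT males under CIH were Apoe (−0.74) and Lgals3 (−1.19). The median log2FC of the list was 0.11, 1.81, 1.28 and 2.00 in the 4 genotype comparisons and −0.48 in WT males, against −0.02, −0.02, 0.02, −0.06 and −0.01 over all genes tested.

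The TREM2 sheddase genes Adam10 and Adam17, tested of 3 listed, were both lower in 5XFAD CIH males (−0.56 and −0.28) and both higher in WT males under CIH (0.29 and 0.28). In CIH females Adam10 alone was lower (−0.23), and in the NX comparisons neither passed. Mep1b, the third, was never above 3 counts in a male library and was not tested. Of the 4 other Trem genes found, Treml1 was lower in 5XFAD in CIH females (−1.08), NX males (−1.35) and CIH males (−1.0). Trem1 was higher in CIH females (0.74), and Trem3 fell in WT males under CIH (−1.85). Treml4 did not pass, and Treml6 was not analysed here.

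Adaptors with ITAMs, the receptors coupled to them and related genes had members higher and members lower in 5XFAD. Of the 15 listed, 2 were higher and 1 lower of 13 tested in 5XFAD NX females, 5 and 1 of 11 in CIH females, 3 and 1 of 15 in NX males, and 6 and 1 of 14 in CIH males. The higher shares were 15.4%, 45.5%, 20% and 42.9%, against 7.26%, 26.2%, 10.4% and 25.3% of all genes, and the lower shares 7.69%, 9.09%, 6.67% and 7.14%, against 6.61%, 25.7%, 7.37% and 23.7%. These rest on 1 to 6 genes each. Clec7a, the gene for the β-glucan receptor dectin-1, was higher in all 4 (3.32, 4.31, 4.16 and 4.66), and so was Hcst, which encodes DAP10, an adaptor with no ITAM that recruits PI3 kinase (1.11, 1.44, 1.02 and 2.09). Siglech, whose product also pairs with DAP12, was lower in all 4 (−0.52, −0.60, −0.48 and −0.38). Fcer1g, the adaptor gene of Fc receptors, was higher under CIH (0.53 in females and 1.48 in males), and Fcgr4, an activating Fc receptor gene, in CIH females (0.71), NX males (0.99) and CIH males (1.44). Of the same 15 genes, 8 fell (53.3%, against 15% of all genes) and none rose in WT males under CIH, with Fcer1g and Hcst at −0.71 each, Fcgr4 at −0.55 and Clec7a at −0.43; the list median was −0.45.

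Downstream of the receptors, 30 kinases, adaptors and effectors around Syk held genes that were higher and genes that were lower. In 5XFAD, 2 were higher and 6 lower of 29 tested in NX females, 7 and 13 of 30 in CIH females, 5 and 8 of 30 in NX males, and 8 and 15 of 30 in CIH males. The higher shares of 6.9%, 23.3%, 16.7% and 26.7% lay near those of all genes (7.26%, 26.2%, 10.4% and 25.3%), and the lower shares were 20.7%, 43.3%, 26.7% and 50% against 6.61%, 25.7%, 7.37% and 23.7%. The Src family genes split: Fyn was higher in all 4 comparisons (1.52, 1.79, 1.38 and 1.70), and Lyn (−0.42, −0.30, −0.37 and −0.45) was lower in all 4. Fgr, of the same family, was higher in CIH females (2.37), NX males (1.47) and CIH males (2.16), as was Ctnnb1, the β-catenin gene (0.91, 0.85 and 0.40). Tec, a kinase gene, was higher in all 4, at 0.48 in NX females, Card9 was lower in NX males (−0.72) and Vav3 in CIH males (−1.44). Plcg1, a phospholipase C gamma gene, was lower in CIH females (−0.86), NX males (−0.59) and CIH males (−1.19), whereas Plcg2, the form of myeloid cells, did not pass in any. Vav2 was lower in all 4 (−0.68, −0.63, −0.63 and −0.93). CIH in WT males went with a rise of 7 (23.3%, against 13.6% of all genes) and a fall of 5 (16.7%, against 15%). Plcg1 rose by 0.48, with Malt1 (0.46) and Ctnnb1 (0.39) also up, and Fgr fell (−0.78). The list median was −0.14, −0.12, −0.18, −0.21 and 0.02 in the 5 comparisons.

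Inhibitors of ITAM signalling were more often lower than higher. Of 22 tested, 1 was higher and 6 lower in 5XFAD NX females, 7 and 12 in CIH females, 4 and 8 in NX males, and 7 and 10 in CIH males. The shares lower were 27.3%, 54.5%, 36.4% and 45.5%, against 6.61%, 25.7%, 7.37% and 23.7% of all genes. The shares higher, 4.55%, 31.8%, 18.2% and 31.8%, lay closer to the 7.26%, 26.2%, 10.4% and 25.3% of all genes. Siglece (−1.41, −1.87, −1.81 and −1.35), an inhibitory sialic acid receptor gene, and Clec4a2 (−1.39, −1.74, −1.69 and −1.33), an inhibitory lectin gene, were lower in all 4. Clec12a was lower in NX females (−1.55), CIH females (−1.18) and NX males (−1.36). Cd33 was lower in CIH females (−0.78), NX males (−0.76) and CIH males (−1.29). Cd22 was higher in all 4 (1.4, 1.46, 1.19 and 1.71), and Lilrb4a was higher in CIH females (3.15), NX males (2.93) and CIH males (2.02), as was Cd300lf (2.80, 2.64 and 2.49). Inpp5d, the SHIP1 gene, was lower under CIH in both sexes (−0.37 and −0.41). Among WT males, 7 fell under CIH (31.8%, against 15% of all genes) and Cbl alone rose (0.52); Clec12a (−0.88), Pilra (−0.76), Siglece (−0.58) and Ptpn6, the SHP-1 gene (−0.52), were among those that fell. The list medians lay between −0.31 and −0.11.

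Of 16 other genes of the Ms4a family, 5 or 6 had enough counts to be tested. Ms4a14 was lower in 5XFAD NX females (−1.23), CIH females (−0.89) and CIH males (−1.19). Tmem176a and Tmem176b, distant members of the family, were higher in 5XFAD CIH females (0.75 and 0.47) and males (1.28 and 1.12) and fell in WT males under CIH (−0.50 and −0.53). Ms4a4b (1.76), a lymphocyte gene, and Ms4a4c (1.23) were higher in 5XFAD CIH males, beside a summed CPM of 7 T and NK cell markers, Ms4a4b among them, of 1.77 to 3.34 in WT CIH and 9.19 to 17.9 in 5XFAD CIH. WT males under CIH also had lower Ms4a4c (−1.04) and Ms4a7 (−0.48). Ms4a1, Ms4a2, Ms4a3, Ms4a4d, Ms4a5, Ms4a8a, Ms4a10, Ms4a13, Ms4a15 and Ms4a18 were not tested, and in at least 1 male group every library was at 0 for Ms4a3, Ms4a4d, Ms4a5, Ms4a10, Ms4a13, Ms4a15 and Ms4a18.

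**Figure D4:**
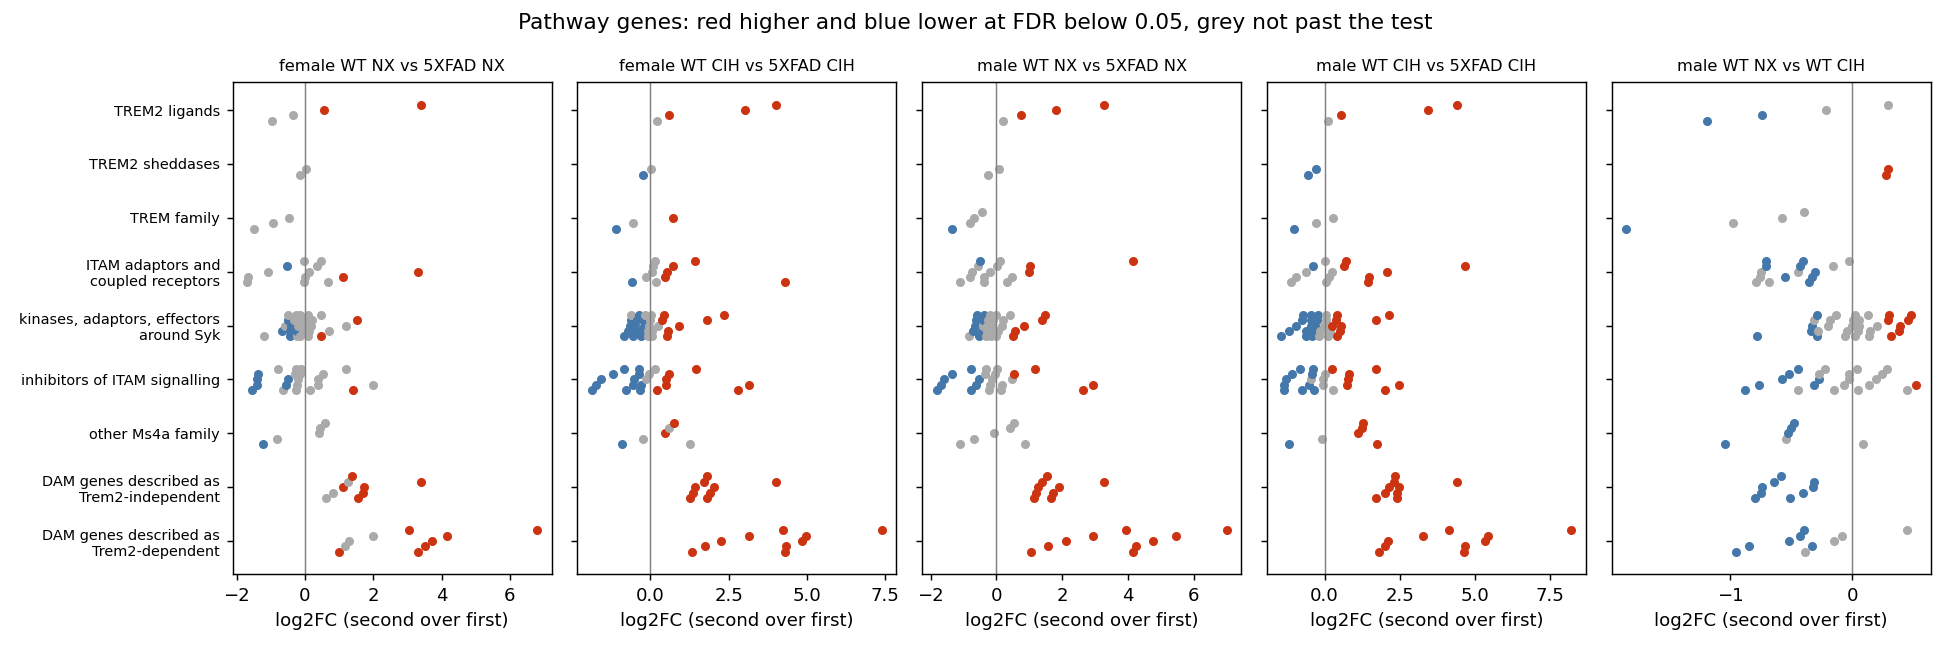
log2FC (x axis, second group over first) of every tested gene of the 9 lists in the 5 comparisons in which any gene passed, with 1 point per gene, red for higher and blue for lower at FDR below 0.05 and grey for the rest. Genes around Syk and the inhibitors lie on both sides of 0, and the DAM genes lie right of 0 in the 4 genotype comparisons and mostly left of 0 in WT males under CIH.

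DAM genes were split into those described as independent of Trem2 and those described as dependent on it. Over all genes, 7.26% were higher in 5XFAD in NX females, 26.2% in CIH females, 10.4% in NX males and 25.3% in CIH males. Of the 9 independent genes, 6 (66.7%) were higher in 5XFAD NX females and all 9 in the other 3 genotype comparisons, with list medians of 1.37, 1.81, 1.53 and 2.34. Of the 10 dependent genes, 7 (70%) were higher in NX females and all 10 in the other 3, with medians of 3.18, 4.28, 4.05 and 4.38. Cst7, a cysteine protease inhibitor gene, led in each (6.80, 7.39, 7.0 and 8.20), and Itgax, the gene for CD11c, passed in each as well (4.15, 4.85, 4.76 and 5.32). Csf1, a growth factor gene of microglia, and Axl, a receptor tyrosine kinase gene, were also higher in all 4, at 3.71 and 3.52 in NX females. Lpl, the lipoprotein lipase gene, was at 3.04, 4.97, 5.47 and 5.44. Among the independent genes, H2-D1, an MHC class I gene (1.73, 1.91, 1.90 and 2.34), and the cathepsin genes Ctsb (1.56, 1.82, 1.72 and 2.13) and Ctsd (1.70, 1.81, 1.68 and 2.42) were higher in all 4, and Lyz2 (2.05 and 2.48) and Cstb (1.43 and 2.42) were higher under CIH in females and males. In WT males under CIH, where Trem2 and Tyrobp fell and 15% of all genes did (all-gene median −0.01), all 9 independent genes fell (median −0.59, with Lyz2 at −0.79, Cstb at −0.75, Apoe at −0.74 and Fth1 at −0.64), and 6 of the 10 dependent genes (60%) fell (median −0.39, with Cst7 at −0.95, Ccl6 at −0.85, Cd9 at −0.52 and Clec7a at −0.43). Axl, Itgax, Lilrb4a and Lpl did not pass there. Whether the lists differed from each other was not tested.

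No gene of any list passed in the treatment comparisons of females and of 5XFAD males. Astrocyte markers, a sum of 5 genes, lay at 5.33 to 30.1 CPM in male WT NX and 252 to 863 in 5XFAD NX, and at 10.2 to 63.4 in male WT CIH and 118 to 519 in 5XFAD CIH. In females they lay at 5.56 to 30.2 in WT CIH and 115 to 519 in 5XFAD CIH, again without overlap, and at 17.3 to 48.5 in WT NX and 16.9 to 246 in 5XFAD NX, which overlapped through F 5XFAD NX 4. The summed CPM of 5 endothelial markers was 44.7 to 118 in WT and 148 to 223 in 5XFAD in CIH females, without overlap, and overlapped in the other 3 genotype comparisons. That of 5 B cell markers was 17.4 to 21.3 in WT and 8.50 to 11.8 in 5XFAD in CIH females and 28.1 to 41.0 in WT and 7.75 to 27.3 in 5XFAD in NX males, without overlap, and overlapped in the other 2. The 7 T and NK cell markers summed to 1.16 to 2.39 in WT and 2.88 to 11.8 in 5XFAD in CIH females and 2.30 to 4.51 in WT and 4.72 to 16.0 in 5XFAD in NX males, without overlap as in CIH males above, and overlapped in NX females. The 5 neuron markers summed to 7.48 to 13.7 in WT and 2.59 to 6.47 in 5XFAD in NX males, without overlap, and overlapped in the other 3. Monocyte, neutrophil, mast cell and oligodendrocyte sums overlapped between genotypes in all 4. The part of any of these in the genotype differences was not tested.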

How the data were processed

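Per the study's methods, Cd11b-positive cells were isolated from the cerebrum, RNA libraries were made and sequenced as 150-base pairs by a provider, and reads were aligned to GRCm38 (mm10; the submitters' processing notes name HISAT2). The counting tool and its strand setting are not given in the sources used here. The authors deposited whole-number counts per gene, without normalization, and FPKM values, which divide the counts by gene length and, in females, by the library total; the male divisor was 0.794 to 1.20 of the table total. Total counts were 14731683 to 25906121 per female and 13457293 to 23095627 per male library, so that 1 CPM is 15 reads in the smallest female and 13 in the smallest male library.

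Each pair of groups within a sex was fitted on its own in R 4.3.3 with edgeR 4.0.16 (TMM factors, quasi-likelihood F test), as the study's methods state edgeR, after a filter that kept genes whose CPM exceeded 1 in 3 or more of the libraries in the fit. The SE is the absolute log2FC divided by the square root of F. The interaction of genotype and treatment was fitted over the 4 groups of a sex. The scripts were tested on simulated data. Libraries were taken as separate mice, and where they are not, p-values measure technical spread. Among 76 pairs of libraries within a group, none agreed within sampling noise. Replicate numbers did not pair the samples.

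Alternatives were DESeq2 1.42.0, the likelihood ratio test of edgeR, library size in place of TMM, no count filter, a filter of 10 or more counts in each library, limma 3.58.1 on log2(FPKM + 1) and log2(FPKM + 0.1), a joint fit of the 4 groups, a block for replicate number, an FDR limit of 0.01, an absolute log2FC above 1, Spearman's rho, and leaving out each library in turn. Fits without M 5XFAD NX 4 and 5 were added after the data were seen. The 8 genes and all gene lists were chosen with earlier results of these data known. Named were the 8 genes, per list and comparison up to 4 genes past the test with the largest absolute log2FC, list genes at 0, the 5 genes most like Trem2, and markers whose sum moved with a member; Siglech, Lyn, Plcg2, Cd33, Inpp5d and the genes most like Treml2 and the Ms4a genes were named after their values were seen. Some genes that these rules name are not reported here. Promoters and transcripts came from RefSeq and GENCODE on GRCm38.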

Additional observations from a re-analysis of the deposited data

Results flagged for a closer look

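In 2 of the 64 sets of libraries examined (8 genes in 8 groups of 4 or 5), 1 library stood apart from the rest of its group, and chance alone sets about 1 in 20 such groups apart. Ms4a6b measured 34.6 CPM in F 5XFAD CIH 3, above the 22.6 to 25.6 CPM of the other 4 libraries. Ms4a6b measured 30.3 CPM in M 5XFAD NX 3, below the 38.2 to 41.1 CPM of the other 4. Both values lay below all WT libraries of their sex.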

How the results depend on the processing

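Among normoxic females, 6 genes passed, and 0 passed with the replicate block (7 of all 14513 genes did), with limma on log2(FPKM + 1) without a filter (0 of 39877) and at an FDR limit of 0.01 (12 of 14513, in place of 2013 at 0.05); leaving out 1 library gave 0 to 7, with F 5XFAD NX 4 behind the 7. The cause was not tested. In normoxic males, limma on log2(FPKM + 1) without a filter called 3 in place of 6 (2049 of all 29356 genes), and with the replicate block 4 passed (1310 of 14834, in place of 2638), Trem2 at an FDR of 0.0506. In WT males under CIH, 0 of 4 passed with all 4 groups in one fit, in which no gene of the table passed. Of the 4, 0 had an absolute log2FC above 1, and the count of all genes past that limit is not reported here. For the male interaction, DESeq2 called 1, the likelihood ratio test 1, and a fit with no filter on low counts 2 (Trem2, FDR = 0.0195, and Tyrobp, FDR = 0.000131) in place of 0. Leaving out 1 library gave 0 to 1. The 1 was Tyrobp without M 5XFAD NX 1 (FDR = 0.0466 in edgeR), a fit whose count over all genes is not reported here. The replicate block changed no call in the other 8 comparisons and interactions. Replicate numbers were no pairing: in no comparison did every pair of same-numbered libraries deviate together, and none had every library correlate best with its own number.

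Changes of sign or call were followed for all 8 genes in comparisons where any of them passed. Elsewhere they were followed for genes at an unadjusted p under 0.05 in edgeR, and for Trem2 and Tyrobp in 5XFAD males. Among these, the values that changed sign had not passed the test: Ms4a6c in female CIH (−0.18 to 0.090 with 1 library left out) and male CIH (−0.10 to 0.11), Ms4a6b in WT males (−0.0032 to 0.073), Treml2 in WT males with library size alone (0.0089), and Trem2 in 5XFAD males without M 5XFAD NX 4 and 5 (−0.080). Over the differences followed, 410 of the values with 1 library left out kept their call, 54 lost it, 3 gained it and 5 changed sign. Under the other alternatives 419 kept it, 30 lost it, 8 gained it and 2 changed sign. Library size alone shifted the median log2FC of all genes from −0.02 to −0.17 in NX females, −0.02 to −0.21 in CIH females, 0.02 to −0.16 in NX males, −0.06 to −0.43 in CIH males and −0.04 to −0.21 in the male interaction, and from −0.01 to 0.09 in WT males under CIH. It also moved mean levels: in F WT CIH, Syk to 374 CPM, Ms4a6b to 65.5, Ms4a6c to 39.1 and Ms4a6d to 86.3; in M WT CIH, Trem2 to 1647, Tyrobp to 569.8, Treml2 to 16.7, Syk to 354, Ms4a6b to 96.7 and Ms4a6d to 95.7; in M WT NX, Treml2 to 16.6 and Ms4a6b to 88.7; and in M 5XFAD CIH, Treml2 to 49.9. By Spearman's rho, 0 of the 5 genes most like Trem2 were shared. Depth limits Ms4a4a, with as few as 9 counts in a library.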
